A study of Rattus norvegicus with 18 samples.

Results

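The genes described here build the extracellular matrix laid down by marrow stromal cells: collagens, basement membrane proteins, elastic fibre and adhesive glycoproteins, the enzymes and chaperone that process collagen, and matricellular proteins. They were named from knowledge of matrix biology as a list of 43 genes, with earlier results of these data known. A gene was represented by its probe sets with that 1 symbol in the platform annotation. Of the 43, 42 had probe sets, 65 in all, and 41 were bright enough to be tested, of 11446 named genes tested in the whole series. Efemp1, a fibulin, had a mean of 1.89 log2 units and lay below the filter on dim probe sets. Thbs1, thrombospondin 1, was not analysed here. The 41 tested genes comprised 7 fibrillar collagens, 3 FACIT collagens, 4 beaded filament and network collagens, 2 multiplexins, 9 basement membrane genes, 6 elastic fibre and adhesive glycoproteins, 7 crosslinking, processing and chaperone genes and 3 matricellular proteins.

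Fibrillar collagens assemble into the fibrils that give bone, tendon and dermis their strength, and FACIT collagens sit on the fibril surface. Basement membranes are sheets of laminin and collagen IV joined by nidogens and perlecan. Lysyl hydroxylases act on collagen inside the cell, whereas lysyl oxidases crosslink collagen and elastin outside it. Marrow stromal cells secrete most of these proteins, and the bone matrix formed by their osteoblast progeny is largely collagen I.

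The cells were bone marrow mesenchymal stem cells (BMSC), adherent stromal cells grown by plating whole marrow directly, from Sprague-Dawley rats that were 6 weeks old when feeding began. The normal diet (ND) was 100% basal diet. The high-fat diet (HFD) was 60% basal diet with 20% lard, 10% sucrose and 10% egg yolk powder. RNA was measured after 1, 2 and 4 months of either diet on 18 Affymetrix rat arrays, 3 per diet and time, giving 6 groups. The sample labels give passage 3 and the series description passage 1, a difference that was not settled here. Diet and feeding time are what set the groups apart in the labels, and no label names a genotype, a pool of animals or a batch. The labels state the origin of the arrays only as 3 per group, so p-values measure the spread between arrays.

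Levels are log2 of the deposited RMA intensity, and the median linear intensity of an array was 25.4 to 27.1. The stromal markers Thy1 and Pdgfra were present on every array, at 11.71 to 12.13 and 9.80 to 11.29 log2 units. Lepr, another of the 12 stromal markers listed, lay below the filter on dim probe sets. Macrophage markers were present too and varied widely, with Cd68 between 4.53 and 10.78, Ptprc between 2.18 and 7.96 and Lyz2 between 8.07 and 12.97. In whole cultures, fewer cells of a type and less RNA per cell cannot be told apart. In the deposited table the values of ND replicate 1 at 1 month were displaced by 1343 rows and were moved back. Col5a3, Fbln5, Lox and Plod1 consequently have no value on that array, and their ND mean at 1 month rests on 2 arrays.

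A stretch of DNA is shown first for a pair of chains that varied together and for a member that passed, from RefSeq promoter sequences of the GRCr8 assembly. Col4a1 and Col4a2, which encode the chains of the main collagen IV molecule, lie head to head on chromosome 16 and their starts are separated by 76 bases. The whole interval between them, chr16:84885521-84885596, is shown on the plus strand because both chains varied together within groups, although neither passed any test between groups. The capitals mark GGGCGG on the other strand, the GC box.
Col4a2 to Col4a1 interval: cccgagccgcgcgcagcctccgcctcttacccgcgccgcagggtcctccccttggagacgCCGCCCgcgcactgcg

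Plod2 encodes a lysyl hydroxylase that modifies collagen telopeptides and was the member that passed the diet test both at 2 months and averaged over times. Its 250 bases upstream, chr8:101964068-101964317, run on the plus strand up to the annotated start. The capitals mark both matches to ACGTG on the other strand, a form of the core of the hypoxia response element.
Plod2 upstream: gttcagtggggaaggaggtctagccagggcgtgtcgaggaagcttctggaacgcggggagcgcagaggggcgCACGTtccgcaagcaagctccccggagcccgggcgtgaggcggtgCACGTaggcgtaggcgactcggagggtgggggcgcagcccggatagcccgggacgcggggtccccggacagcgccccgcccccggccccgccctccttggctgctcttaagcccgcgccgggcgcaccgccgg

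RefSeq promoter entries were matched for 31 of the 43 genes. On either strand of the 250 bases upstream of the start, ACGTG was found in 1 of the 31, that of Plod2, and in 16.6% of 33469 rat promoters. GGGCGG was found in 22 of the 31 and in 30.5% of all promoters. CCAAT was found in 8 of the 31 against 34.0% of all, and TATAAA in 4 against 12.9%. None of these motifs contains another, and a match is a description of these letters only.

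The comparison of the diets at 2 months is the diet comparison at a single time in which members passed the test. At that time the cultures from HFD rats held less RNA of the FACIT collagen Col14a1 and of the elastic fibre glycoprotein Fbln1, and more of the lysyl hydroxylase Plod2. By limma with Benjamini-Hochberg adjustment, 1 member rose and 2 fell of 41, and 38 did not pass. Over all named genes 285 of 11446 passed, or 2.49%, with 1.39% lower and 1.1% higher. The members' median difference was 0.13 log2 units, beside -0.04 for all named genes, and 22 of 41 differences were positive. The members' median was between 0.06 and 0.19 with 1 array left out (0.06 without HFD replicate 3) and -0.03 with the macrophage marker mean as a covariate.

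**Figure D1:**
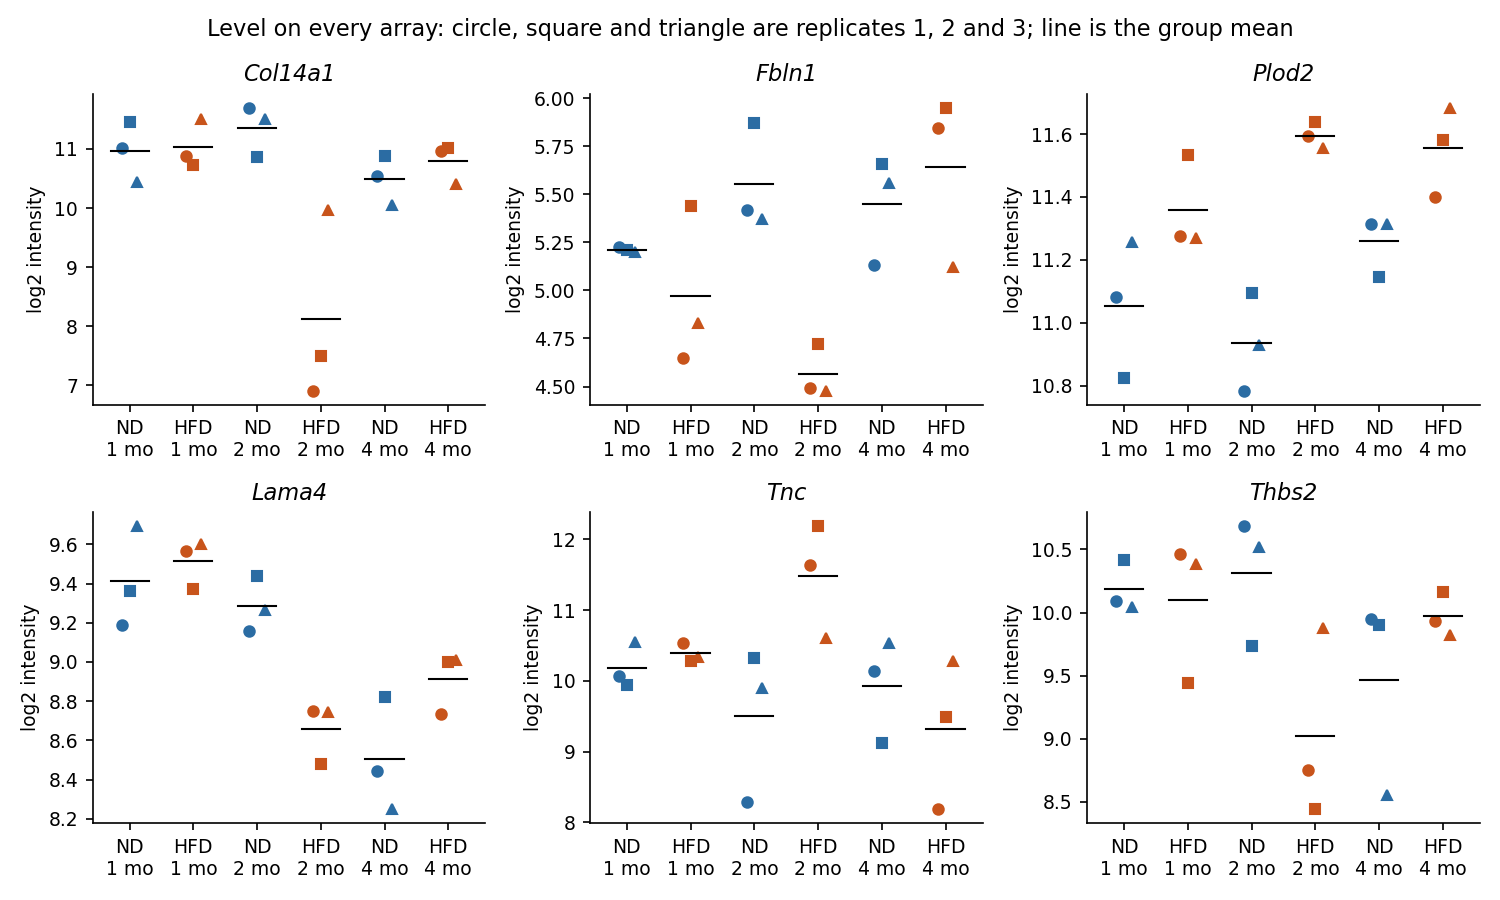
Log2 intensity of 6 matrix genes on each array, by diet and months of feeding; circles, squares and triangles are replicates 1, 2 and 3 and lines are group means. Col14a1 was at 6.91, 7.50 and 9.96 on the HFD arrays at 2 months and at 10.05 or above on all other arrays.

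Among the FACIT collagens, Col14a1 encodes a collagen of the fibril surface in dense connective tissue. At 2 months it read 11.70, 10.86 and 11.50 log2 units on the ND arrays and 6.91, 7.50 and 9.96 on the HFD arrays. All 3 HFD arrays lay below all 3 ND arrays, and replicate 3 lay well above the other two HFD arrays. Col14a1 fell to 10.6% of its ND level, a difference of -3.23 ± 0.57 log2 units (SE, n = 3 in each group, limma adjusted p = 0.0152). Another Col14a1 probe set fell by 3.30 (limma adjusted p = 0.016). In the other 4 groups its arrays read between 10.05 and 11.50. Col12a1, another FACIT collagen, read 10.19, 10.92 and 9.65 in ND and 11.13, 10.93 and 11.46 in HFD. Its arrays did not overlap, but the difference of 0.92 ± 0.34 did not pass (limma adjusted p = 0.154). Col16a1 had a difference of -0.00 ± 0.25.

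The 7 fibrillar chains did not pass at 2 months, and 6 of the 7 differences were positive, with a median of 0.19. Col5a2, a collagen V chain that regulates fibril diameter, had the smallest p among them. It read 12.35, 12.27 and 12.48 in ND and 12.57, 12.62 and 12.62 in HFD, with no overlap and a difference of 0.23 ± 0.08 (limma adjusted p = 0.141). Col1a1 and Col1a2, the chains of collagen I, had differences of 0.17 ± 0.11 and 0.13 ± 0.09. The 95% interval for Col1a1 ran from -0.07 to 0.41. Col3a1, which forms fibrils together with collagen I, had 0.19 ± 0.18, and Col11a1 was at -0.15 ± 0.23.

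None of the 4 beaded filament and network collagens passed at 2 months. Col8a1, a short-chain network collagen, read 10.73, 11.01 and 10.81 in ND and 11.77, 11.16 and 10.12 in HFD. The HFD arrays lay on both sides of the ND arrays, and the difference was 0.17 ± 0.33 (limma adjusted p = 0.799). The collagen VI chains Col6a1, Col6a2 and Col6a3, which form microfibrils near cell surfaces, had differences of -0.06 ± 0.55, -0.22 ± 0.53 and 0.35 ± 0.99. The multiplexins, collagens that carry heparan sulfate or related chains and yield the fragments endostatin and restin, did not pass either. Col15a1 read 7.52, 7.84 and 8.18 in ND and 8.10, 6.88 and 5.89 in HFD, a difference of -0.89 ± 0.49 (limma adjusted p = 0.309). Col18a1 had -0.51 ± 0.37.

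Of the 9 basement membrane genes, 7 had negative differences at 2 months, with a median of -0.27, and 0 passed. Unadjusted, limma gave 1 higher and 3 lower at p under 0.05, beside 9.21% and 12.1% of named genes. Lama4, a laminin alpha chain of vessels, fat and muscle, read 9.16, 9.44 and 9.26 in ND and 8.75, 8.48 and 8.74 in HFD. The groups did not overlap, and the difference of -0.63 ± 0.16 stood just outside the threshold (limma adjusted p = 0.0532). A dim second Lama4 probe set, at 3.37 log2 units on average, stood the other way at 0.21 (limma adjusted p = 0.782). Lamc1, the gamma chain shared by most laminins, read 10.45, 10.71 and 10.45 in ND and 9.91, 9.78 and 9.88 in HFD. Its brightest probe set differed by -0.68 ± 0.20 (limma adjusted p = 0.0847), and another probe set of the gene fell by 1.12 (limma adjusted p = 0.0427). Lama2, the laminin alpha chain of muscle and nerve, differed by -0.83 ± 0.30 (0.15) and was dim, at 3.15 log2 units on average in HFD. Lamb1, the beta chain that joins Lamc1 in the same trimers, had -0.12 ± 0.14. Nid2, a nidogen that links laminin to collagen IV, stood the other way at 0.80 ± 0.29 (0.143). Its relative Nid1 had 0.13 ± 0.16, and the perlecan gene Hspg2 had -0.00 ± 0.26.

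**Figure D2:**
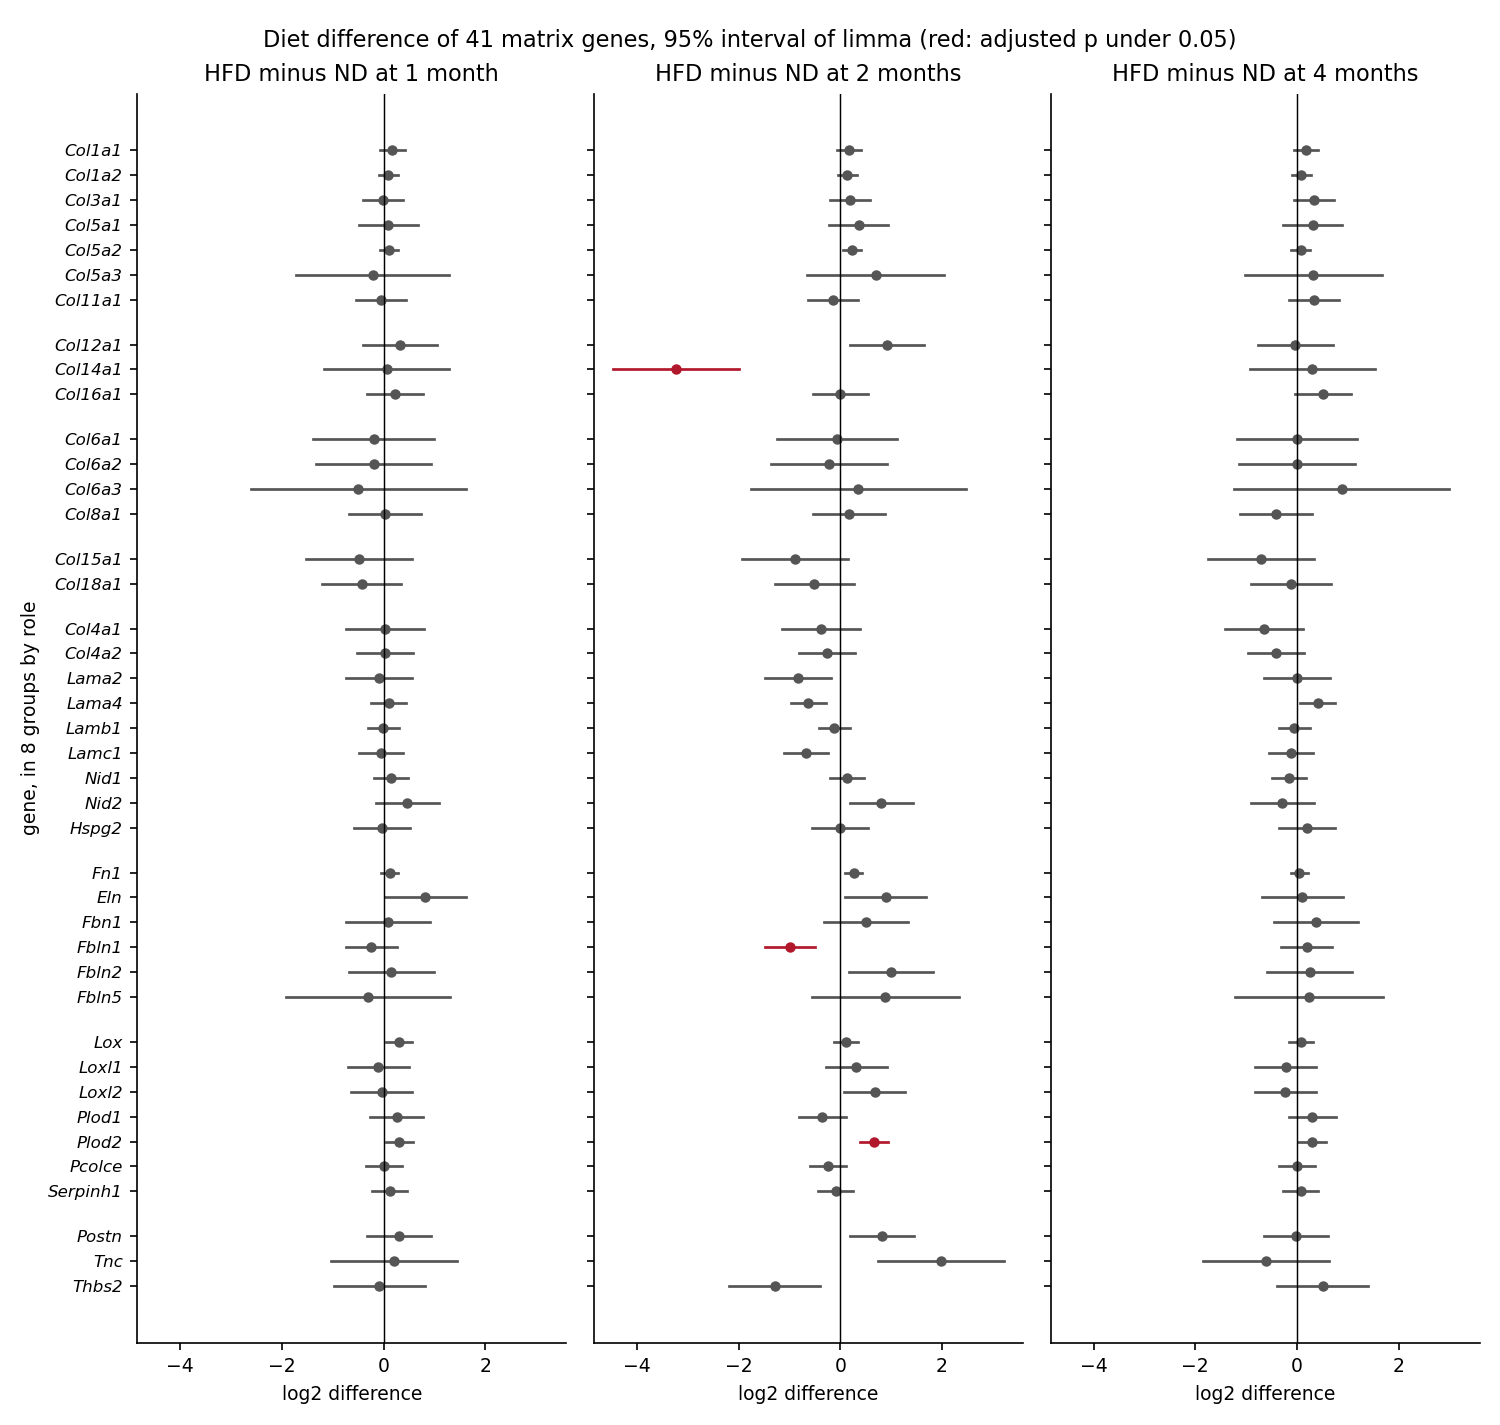
Difference HFD minus ND in log2 intensity of the 41 tested matrix genes at 1, 2 and 4 months, with 95% intervals of the limma fit; genes with an adjusted p under 0.05 are red. At 2 months Col14a1 at -3.23, Fbln1 at -0.99 and Plod2 at 0.66 passed, and at 1 and 4 months no member did.

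Among the elastic fibre and adhesive glycoproteins, Fbln1, a fibulin of elastic fibres and basement membranes, read 5.42, 5.87 and 5.37 in ND and 4.49, 4.72 and 4.48 in HFD at 2 months. All HFD arrays lay below all ND arrays. Fbln1 fell to 50.3% of its ND level, a difference of -0.99 ± 0.23 log2 units (SE, n = 3 in each group, limma adjusted p = 0.0428), and with the macrophage marker mean as a covariate the adjusted p was 0.081. A second Fbln1 probe set had a mean of 2.96 log2 units, below the filter on dim probe sets, and was not tested. It read 3.17, 2.98 and 2.93 in ND and 3.11, 2.79 and 2.81 in HFD at 2 months, with overlap. The other 5 genes of the group had positive differences and did not pass. Fn1, fibronectin, read 12.36, 12.39 and 12.34 in ND and 12.60, 12.67 and 12.61 in HFD, with a difference of 0.26 ± 0.08 (limma adjusted p = 0.0904). Fbln2 had 0.99 ± 0.39 (0.172), Eln, elastin, 0.89 ± 0.37 (0.196), Fbln5 0.89 ± 0.67 (0.463) and Fbn1, the microfibril protein fibrillin 1, 0.50 ± 0.39 (0.468). The elastin value rested largely on HFD replicate 1, which read 6.04 beside 4.28 and 4.25.

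In the crosslinking and processing group Plod2 read 10.78, 11.09 and 10.93 on the ND arrays at 2 months and 11.59, 11.64 and 11.55 on the HFD arrays. The groups were separate and the HFD arrays lay within 0.1 log2 units of each other. Plod2 rose by 0.66 ± 0.13 log2 units (SE, n = 3 per group, limma adjusted p = 0.0178), to 158% of its ND level, with a 95% interval from 0.39 to 0.93. Loxl2, a lysyl oxidase that acts on collagen IV, had 0.67 ± 0.28 (limma adjusted p = 0.196) and its arrays did not overlap. The other lysyl oxidases had 0.11 ± 0.11 for Lox and 0.32 ± 0.28 for Loxl1. Plod1, the lysyl hydroxylase that acts on the triple helix, stood at -0.35 ± 0.22 (0.37). Pcolce, which enhances the cleavage of procollagen, stood at -0.24 ± 0.17, and the collagen chaperone gene Serpinh1 at -0.09 ± 0.16. The Serpinh1 value comes from a probe set that can also bind related transcripts.

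The 3 matricellular proteins did not pass at 2 months. Tnc, tenascin C, an adhesion-modulating protein of remodelling tissue, read 8.28, 10.33 and 9.90 in ND and 11.63, 12.19 and 10.61 in HFD. The arrays did not overlap, but the ND arrays were spread over 2.04 log2 units, and the difference was 1.97 ± 0.58 (limma adjusted p = 0.0812). Postn, periostin, which takes part in collagen assembly, had 0.82 ± 0.29 (0.14). Thbs2, thrombospondin 2, an inhibitor of vessel growth, read 10.68, 9.73 and 10.52 in ND and 8.75, 8.44 and 9.88 in HFD, a difference of -1.29 ± 0.42 (0.107). As for Col14a1, the HFD value nearest to ND was that of replicate 3.

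Over the 41 members at 2 months, arrays of both diets did not overlap for 10 genes higher in HFD and 5 lower. The same held for 10.7% and 14.8% of all named genes. Unadjusted, 10 members were higher and 6 lower at p under 0.05 in limma, beside 9.21% and 12.1% of named genes. Leaving out single 2-month arrays moved the number of members that passed between 0 and 6. It was 0 without ND replicate 1, HFD replicate 1 or HFD replicate 2, and 6 without HFD replicate 3. Fitted on the 6 arrays of this comparison alone, 0 passed, with adjusted p of 0.158 for Col14a1, 0.104 for Fbln1 and 0.112 for Plod2.

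Markers of other cells also differed between the 2-month groups. Of 21 tested macrophage and monocyte markers all 21 had negative differences, with a median of -1.57, and 0 passed. Their mean relative to its average over arrays was 1.68, 1.55 and -1.78 on the ND arrays and -2.49, -1.24 and 0.16 on the HFD arrays. The smooth muscle regulator Myocd rose by 1.98 ± 0.45 (limma adjusted p = 0.0357), and 6 of 7 tested smooth muscle and pericyte markers had positive differences. Of 11 tested stromal markers 6 had positive differences, with a median of 0.01, and 1 passed, the receptor gene Pdgfra, which fell by 1.08 ± 0.25 (0.0427). The adipocyte regulator Cebpa fell by 1.65 ± 0.38 (0.0406), and all 6 tested adipocyte markers had negative differences. All 13 proliferation markers had negative differences with a median of -0.70, and 0 passed. With the macrophage mean as a covariate, Col14a1 stood at -2.93 (adjusted p = 0.0259) and Plod2 at 0.64 (0.0332), both in limma. The part of the other marker groups in these results was not tested.

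At 1 month of feeding no member passed, and for most members the diets overlapped. The members' median difference was 0.03 log2 units beside -0.06 for all named genes, and 24 of 41 were positive. That median had no stable sign: it was -0.03 without ND replicate 1 or without HFD replicate 1, 0.13 without ND replicate 3 and 0.21 without HFD replicate 2. By limma, 0 of 41 members and 0% of named genes passed, with a lowest adjusted p among members of 0.42. Without adjustment 3 members were higher and 0 lower at p under 0.05, beside 3.07% and 5.84% of named genes. Arrays of both diets did not overlap for 5 members higher in HFD and 0 lower, beside 5.39% and 11.5% of named genes.

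The 5 were Col5a2, Nid2, Lox, Plod1 and Plod2. Plod2 read 11.08, 10.82 and 11.26 in ND and 11.28, 11.53 and 11.27 in HFD at 1 month. The separation was narrow, and the difference was 0.31 ± 0.13 (limma adjusted p = 0.42). Lox, the main lysyl oxidase, read 11.79 and 11.42 on the 2 ND arrays with a value and 11.81, 11.95 and 11.95 in HFD, a difference of 0.30 ± 0.12 (0.42). Nid2 read 7.49, 7.89 and 7.75 in ND and 8.41, 8.17 and 7.95 in HFD, a difference of 0.46 ± 0.29 (0.641). Eln had the widest positive difference of the members, 0.82 ± 0.37 (0.493), from 3.62, 3.76 and 4.18 in ND and 5.14, 4.18 and 4.71 in HFD. These elastin levels lie near the filter on dim probe sets, which was 3.22 log2 units.

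The collagens of each class lay close to their ND values at 1 month or were widely spread. Col1a1 read 12.44, 12.28 and 12.54 in ND and 12.67, 12.46 and 12.64 in HFD, a difference of 0.17 ± 0.11 (limma adjusted p = 0.661). Col12a1 had 0.32 ± 0.34 (0.814), from 10.98, 9.83 and 10.51 in ND and 10.86, 11.13 and 10.30 in HFD. Col14a1, the member with the strongest fall at 2 months, had 0.06 ± 0.57 (0.986). Col6a3 read 8.34, 11.11 and 11.41 in ND and 10.54, 8.17 and 10.65 in HFD. In each diet 1 array lay more than 2 log2 units below the others, and the difference of -0.50 ± 0.99 (0.92) changed sign when single arrays were left out. Col18a1 read 6.88, 8.02 and 8.23 in ND and 7.38, 6.78 and 7.67 in HFD, a difference of -0.43 ± 0.37 (0.75). Postn had 0.31 ± 0.29 (0.783), from 12.22, 11.45 and 12.35 in ND and 12.53, 12.29 and 12.12 in HFD. Of the macrophage markers 18 of 21 had positive differences at 1 month, with a median of 1.44 and 0 passing.

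At 4 months no member passed. Col14a1 and Fbln1, which had fallen at 2 months, overlapped between the diets, whereas Plod2 did not. The members' median difference was 0.07 log2 units beside -0.01 for all named genes, and 25 of 41 were positive. Leaving out 1 array moved that median between 0.0072, without ND replicate 3, and 0.12, without ND replicate 2. It was 0.0352 without HFD replicate 2 and 0.115 without ND replicate 1. By limma 0 of 41 members and 0% of named genes passed, and every adjusted p was 0.999 or above. Without adjustment Lama4 and Plod2 were higher at p under 0.05 and 0 members were lower, beside 1.28% and 1.76% of named genes. Arrays did not overlap for 1 member higher, Plod2, and 2 lower, Col4a1 and Nid1, beside 3.4% and 4.64% of named genes. Another probe set of Col4a1 and another of Nid1 did overlap between the diets.

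Col14a1 at 4 months read 10.55, 10.88 and 10.05 in ND and 10.96, 11.02 and 10.41 in HFD, a difference of 0.30 ± 0.57. Fbln1 read 5.13, 5.66 and 5.56 in ND and 5.85, 5.95 and 5.12 in HFD, a difference of 0.19 ± 0.23. Plod2 read 11.31, 11.15 and 11.31 in ND and 11.40, 11.58 and 11.68 in HFD, a difference of 0.30 ± 0.13. Lama4 stood on the other side from 2 months, at 8.44, 8.82 and 8.25 in ND and 8.73 to 9.01 on the HFD arrays, a difference of 0.41 ± 0.16. Without ND replicate 3, its lowest array, the Lama4 difference was 0.28 ± 0.17.

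All 7 fibrillar collagens had positive differences at 4 months, between 0.07 and 0.34, and none passed. Without ND replicate 3 this held for 5 of the 7, with a range from -0.05 to 0.11 and Col1a2 and Col5a3 on the negative side. Col3a1 read 12.72, 12.86 and 12.02 in ND and 12.81, 12.90 and 12.90 in HFD, a difference of 0.33 ± 0.18. Here the difference rested on ND replicate 3, and without that array it was 0.08. Other members shared this: without ND replicate 3, Col16a1 moved from 0.51 ± 0.25 to 0.21, Fbn1 from 0.38 ± 0.39 to 0.10 and Thbs2 from 0.50 ± 0.42 to 0.05. Col16a1, a FACIT collagen, read 8.34, 8.50 and 7.50 in ND and 8.47, 8.82 and 8.58 in HFD. Fbn1 read 10.27, 9.95 and 9.28 in ND and 10.08, 10.29 and 10.26 in HFD. Thbs2 read 9.95, 9.90 and 8.55 in ND and 9.93, 10.16 and 9.82 in HFD. On ND replicate 3 the proliferation marker mean was 1.27, above the other 17 arrays, and its part in these values was not tested.

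For some members the ND array that stood apart was the high one. Col15a1 read 6.83, 6.70 and 8.10 in ND and 6.26, 6.51 and 6.72 in HFD at 4 months, a difference of -0.71 ± 0.49 that was -0.27 without ND replicate 3. Col8a1 read 10.69, 10.34 and 11.28 in ND and 10.35, 10.57 and 10.12 in HFD, a difference of -0.42 ± 0.33 that was -0.17 without it. Col4a1 read 10.08, 10.07 and 10.87 in ND and 9.10, 9.94 and 10.06 in HFD, a difference of -0.64 ± 0.36 that was -0.38 without ND replicate 3 and -0.34 without HFD replicate 1. Another Col4a1 probe set read 9.97, 10.43 and 10.80 in ND and 9.17, 10.01 and 10.00 in HFD, with overlap and a difference of -0.67. Nid1 read 10.82, 10.80 and 10.89 in ND and 10.70, 10.67 and 10.68 in HFD, a small difference of -0.15 ± 0.16. A dimmer Nid1 probe set, at 5.86 log2 units on average, stood the other way at 0.14, with overlap.

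Averaged over the 3 feeding times, Plod2 was the member that passed. It rose by 0.42 ± 0.07 log2 units (SE, 9 arrays per diet, limma adjusted p = 0.0164), to 134% of its ND level, with a 95% interval from 0.27 to 0.58. Its HFD arrays lay above its ND arrays at each of the 3 times, and it passed in all 18 fits that left out 1 array. Among all named genes 2.43% passed the averaged test, 0.865% higher and 1.56% lower. The 7 fibrillar collagens all had positive averages, with a median of 0.17, but without ND replicate 3 at 4 months Col11a1 averaged -0.06 and 6 of the 7 were positive. Col1a1 had 0.17 ± 0.06 (limma adjusted p = 0.148), Col5a2 0.14 ± 0.05 (0.126) and Fn1 0.14 ± 0.05 (0.103). Eln had 0.60 ± 0.22 (0.13). On the negative side Col14a1 averaged -0.95 ± 0.33 (0.119) and Col15a1 -0.69 ± 0.28 (0.173). None of these passed. Unadjusted p-values under 0.05 were found for 7 members higher and 4 lower, beside 6.98% and 13.8% of named genes.

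Whether the diet difference itself changed with feeding time was tested with the limma F test of diet by time. No member and 0% of named genes passed, with a lowest adjusted p among members of 0.419, for Col14a1. At an unadjusted p under 0.05 there were 5 members, beside 6.67% of named genes. They were Col14a1, Lama4 (adjusted p = 0.423), Fbln1 (0.615), Tnc (0.662) and Thbs2 (0.678). For Plod2 the adjusted p was 0.785. The members that passed at 2 months are therefore not shown to differ between times by this test.

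**Figure D3:**
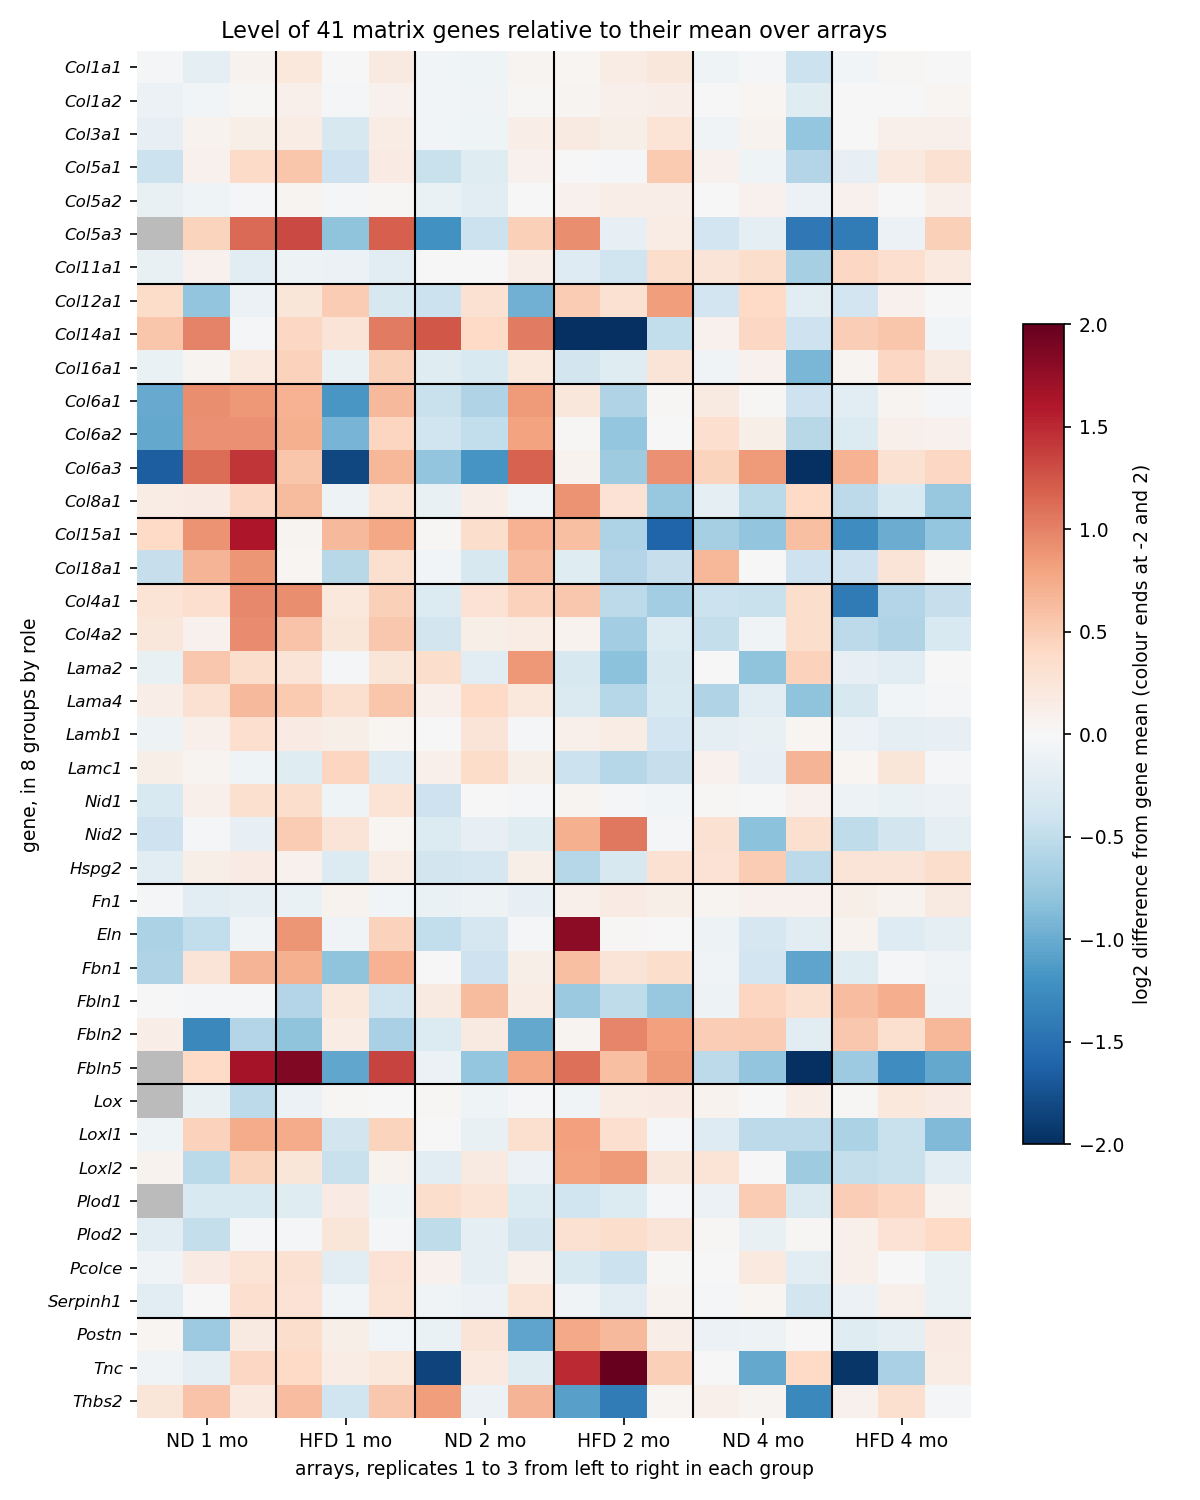
Log2 level of each of the 41 tested matrix genes on each array relative to its mean over the arrays, in 8 groups by role; colours end at -2 and 2 and grey cells have no value. Col14a1 was low on the HFD arrays at 2 months, and the collagen VI chains varied within groups.

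Feeding time within each diet was compared next. By limma no member passed in ND between any pair of times, where 0% of named genes passed. In HFD, 0 members passed from 1 to 2 months, beside 0.0961% of named genes, 0.0349% higher and 0.0612% lower. From 1 to 4 months 0 members and 0% of named genes passed. From 2 to 4 months 1 member passed, beside 0.769% of named genes, 0.315% higher and 0.454% lower. That member was Col14a1, which rose by 2.67 ± 0.57 (SE, n = 3 per group, adjusted p = 0.0498). It passed in 2 of the 18 fits that left out 1 array, and with the macrophage mean as a covariate its adjusted p was 0.188. Its change from 1 to 2 months was -2.91 ± 0.57 (0.0854). Fbln1 had 1.08 ± 0.23 from 2 to 4 months, at an adjusted p of 0.05 that was not under the threshold. Unadjusted p-values under 0.05 from 1 to 2 months were found in HFD for 2 members higher and 8 lower, beside 4.3% and 3.54% of named genes. From 2 to 4 months they were found in HFD for 5 higher and 5 lower, beside 8.48% and 10.2%. In ND they were found for 1 higher and 0 lower from 1 to 2 months, beside 1.16% and 1.06%, and for 2 higher and 1 lower from 2 to 4 months, beside 2.39% and 4.72%.

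Several members had lower means at 4 months than at 1 month in both diets without passing. Col4a1 had ND means of 11.04, 10.67 and 10.34 at 1, 2 and 4 months and HFD means of 11.06, 10.29 and 9.70. From 1 to 4 months it differed by -0.70 ± 0.36 in ND (limma adjusted p = 0.564) and by -1.36 ± 0.36 in HFD (0.393). Its partner Col4a2 had -0.48 ± 0.26 in ND (0.576) and -0.93 ± 0.26 in HFD (0.401). Col15a1 had -1.26 ± 0.49 (0.454) and -1.49 ± 0.49 (0.47), and Loxl1, a lysyl oxidase of elastic fibres, -0.81 ± 0.28 (0.414) and -0.92 ± 0.28 (0.427). Fbln5, which brings Loxl1 and elastin together on elastic fibres, had -2.27 ± 0.75 in ND (0.41), with 2 arrays at 1 month, and -1.72 ± 0.67 in HFD (0.575). Lama4 in ND had -0.91 ± 0.16 (0.148) and in HFD -0.60 ± 0.16 (0.401). The diet groups at 1 and 4 months are the same arrays as in the diet comparisons.

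Counts for the whole list from 1 to 4 months were 15 positive and 26 negative in ND, with a median of -0.21, and 14 and 27 in HFD, with a median of -0.14. The medians of all named genes were -0.03 and 0.00. In ND the members' median was -0.03 without ND replicate 3 at 1 month, -0.04 without ND replicate 3 at 4 months, -0.32 without ND replicate 1 at 1 month and -0.03 with the macrophage covariate. In HFD it was -0.06 without replicate 1, -0.31 without replicate 2 and -0.05 without replicate 3 at 1 month. With the macrophage covariate the members' median in HFD was -0.09. Over the same interval 21 of 21 macrophage markers had positive differences in each diet, with medians of 2.38 in ND and 1.20 in HFD. Of 6 adipocyte markers 5 had negative differences in each diet, with medians of -1.81 and -1.16. No marker of either list passed, and the part of the adipocyte markers was not tested. Unadjusted p-values under 0.05 were found for 3 members higher and 4 lower in ND, beside 2.73% and 7.23% of named genes, and 2 and 7 in HFD, beside 3.43% and 4.4%. The 2 higher in HFD were Fbln1, with 0.67 ± 0.23 (limma adjusted p = 0.518), and Fbln2, with 0.94 ± 0.39 (0.577).

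**Figure D4:**
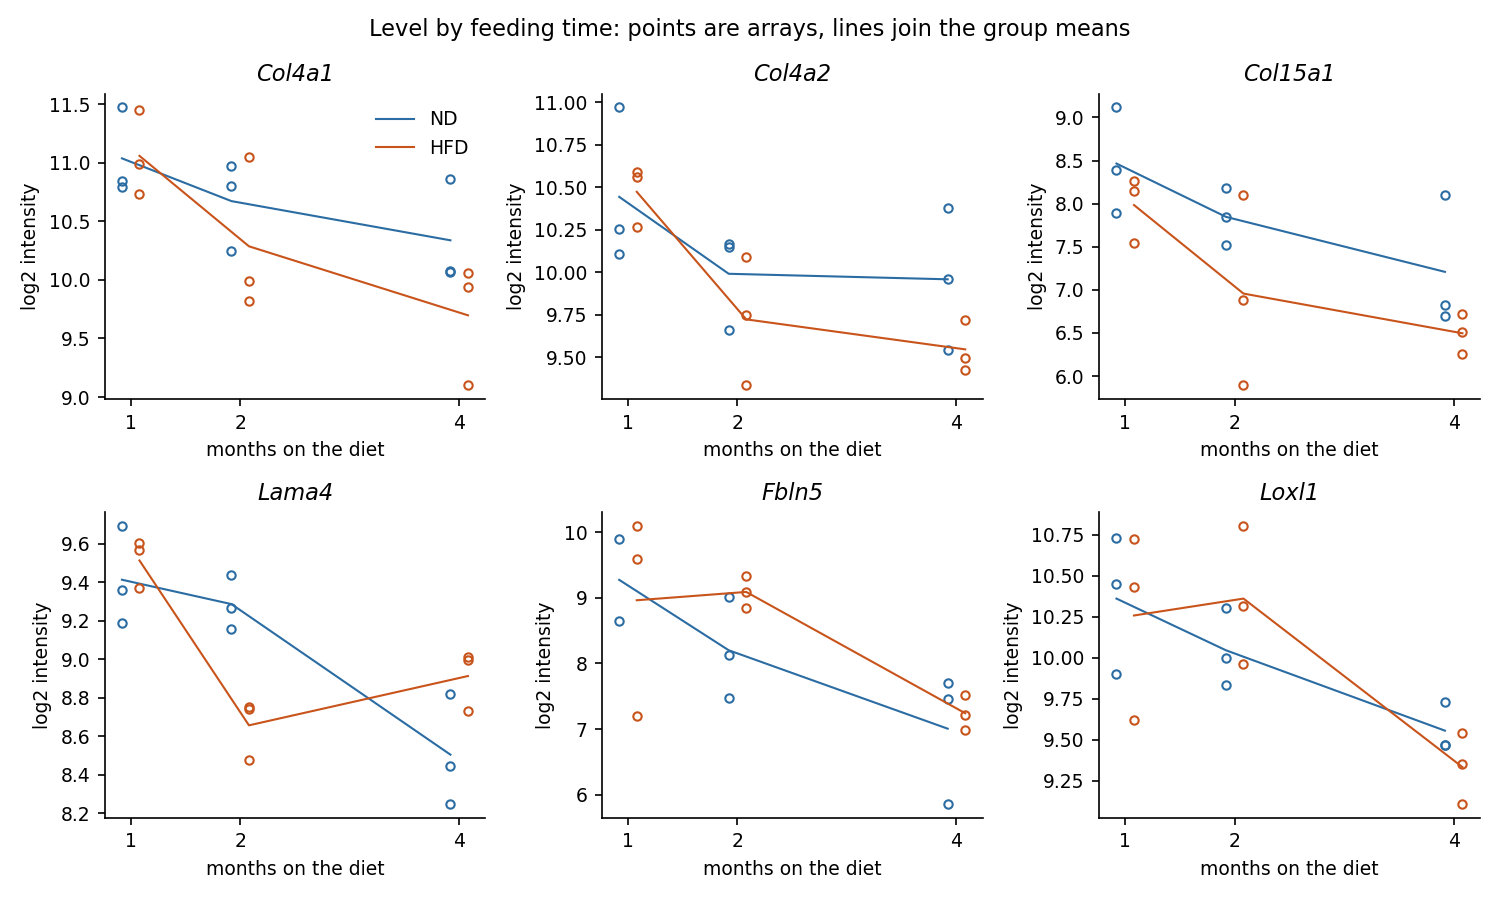
Log2 intensity of 6 matrix genes against months on the diet (1, 2 and 4), with 1 point per array and lines joining the group means of ND (blue) and HFD (orange). Means at 4 months lay below those at 1 month in both diets for all 6 genes, and none of these time differences passed the limma test.

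The members differed from each other in how reproducible they were within a group. The median SD within groups was 0.37 log2 units for the 41 members and 0.20 for all named genes, and it was over 0.5 for 11 of 41 members (26.8%) beside 11.9% of named genes. The lowest were 0.06 for Fn1, 0.07 for Col5a2 and 0.08 for Col1a2. Other fibril chains varied more, with 0.12 for Col1a1, 0.23 for Col3a1, 0.30 for Col11a1 and 0.35 for Col5a1. Col6a3 had 1.32, Fbln5 0.91, Col5a3, a collagen V chain of restricted tissues, 0.84, Tnc 0.77 and Col14a1 0.77. For Col6a3 the 95% interval of the diet difference consequently spanned more than 4 log2 units at each time.

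Chains of the same molecule were set against each other over the 18 arrays after the group means were subtracted. These relations were chosen after the values had been seen, and p-values come from exact two-sided permutations of arrays within groups, 46656 in all, adjusted over 10 relations. Col6a1 and Col6a2 had a Pearson r of 0.986 (p = 2.14e-05, adjusted 0.000214, the smallest the permutations can give) and a Spearman rho of 0.977 (p = 2.14e-05). Without the 2 arrays farthest from the median of Col6a1 after group means were subtracted, r was 0.977. In the other relations too the 2 arrays were chosen on a single variable, never on the macrophage marker mean. Col6a3 had an r of 0.866 (exact p = 0.00392, adjusted 0.00784) and a rho of 0.806 (exact p = 0.00467) with Col6a1, and r = 0.794 without 2 arrays. With Col6a2 it had an r of 0.902 (exact p = 0.00388, adjusted 0.00784), a rho of 0.858 (exact p = 0.00493) and r = 0.851 without 2 arrays.

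The chains of collagen I had an r of 0.901 (exact p = 0.00319, adjusted 0.00784), a rho of 0.876 (exact p = 0.00246) and r = 0.905 without 2 arrays. Col4a1 and Col4a2, the head-to-head genes whose shared interval is printed above, had an r of 0.758 (exact p = 0.00334, adjusted 0.00784), a rho of 0.732 (exact p = 0.0042) and r = 0.669 without 2 arrays. For Col5a1 and Col5a2 r was 0.614 (exact p = 0.0156, adjusted 0.026), rho 0.684 (exact p = 0.00932) and r without 2 arrays 0.564. Lamb1 and Lamc1, which share laminin trimers, had an r of 0.148 (exact p = 0.46, adjusted 0.46), a rho of 0.125 (exact p = 0.605) and r = 0.293 without 2 arrays. The collagen chains set against each other here thus moved together within groups, and for the laminin chains no such relation was detected. Members that do not share a molecule were not set against each other. Whether the relation is particular to chains of the same molecule was therefore not tested.

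Collagen VI was also set against the macrophage marker mean of 17 genes, in the same 10 relations. Col6a1 read 9.38, 11.32 and 11.25 on the ND arrays at 1 month, where the marker mean was 1.43, -1.93 and -3.45. It read 11.08, 9.23 and 11.03 on the HFD arrays, where the marker mean was -0.58, 0.82 and -0.72. In both groups the array with the highest marker mean had the lowest Col6a1. The same held in HFD at 4 months, but not in either diet at 2 months or in ND at 4 months. On the ND arrays at 4 months Col6a1 read 10.57, 10.40 and 9.98, and the marker mean was 0.24, 2.10 and -0.05. Over all 18 arrays r was -0.747 for Col6a1 (exact p = 0.0183, adjusted 0.0262), rho -0.707 (exact p = 0.022) and r without 2 arrays -0.642. For Col6a2 r was -0.712 (exact p = 0.0297, adjusted 0.0371), rho -0.618 (exact p = 0.0418, adjusted 0.0522) and r without 2 arrays -0.557. For Col6a3 r was -0.465 (exact p = 0.156, adjusted 0.173), rho -0.362 (exact p = 0.272) and r without 2 arrays -0.473. The adipocyte marker mean also varied at 1 month, at -0.99, 1.62 and 2.27 on the ND arrays and 2.43, -1.12 and 0.60 on the HFD arrays. The array with its lowest value also had the lowest Col6a1 in ND at each time and in HFD at 1 month. This did not hold in HFD at 2 or 4 months. The relation of collagen VI to the adipocyte markers was not tested.

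**Figure D5:**
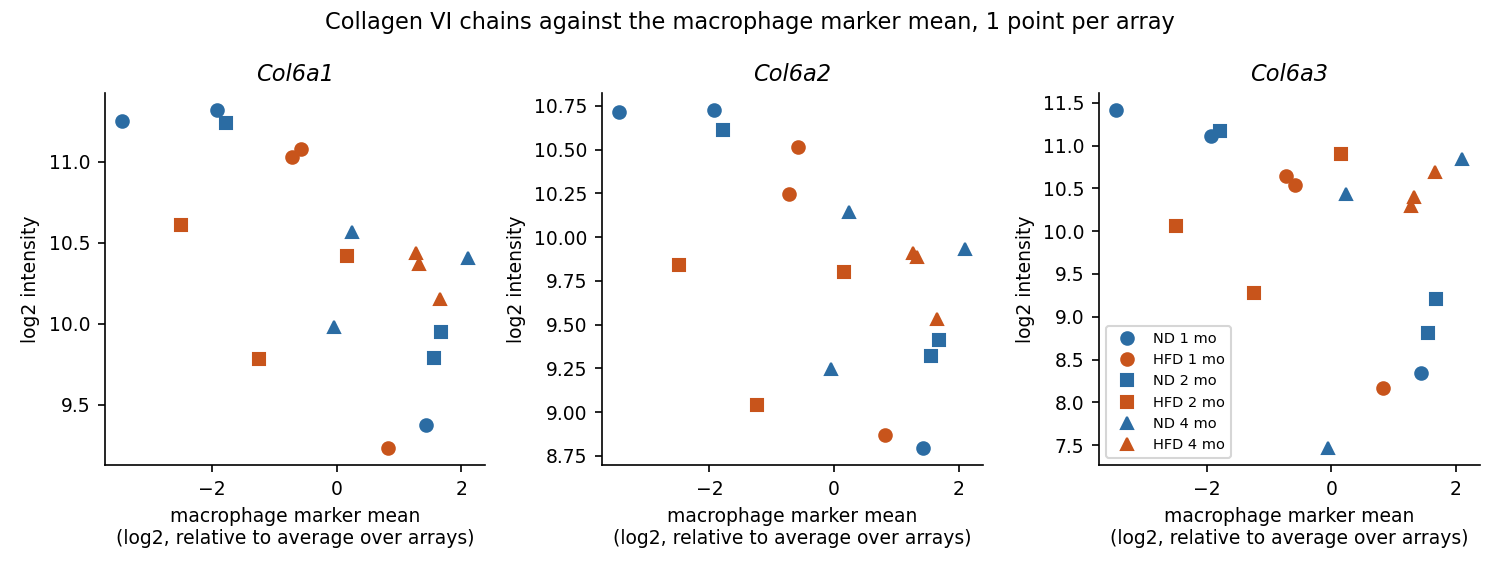
Log2 intensity of the 3 collagen VI chains against the mean of 17 macrophage markers relative to its average over arrays, with 1 point per array, coloured by diet and shaped by months. After subtraction of group means r was -0.747 for Col6a1, -0.712 for Col6a2 and -0.465 for Col6a3.

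Of the other genes of these pathways, 12 of 25 other collagen chains, 16 of 25 other procollagen processing enzymes, 9 of 14 other laminins and basement membrane genes, 12 of 14 other elastic fibre genes, 11 of 17 other matricellular genes and 19 of 23 matrix receptors were bright enough to test. In the 11 tests of limma, 2 of these 79 genes passed in 1 test each. That was 1.27% at 2 months and 1.27% averaged over times, below the 2.49% and 2.43% of all named genes. P4ha3, a subunit of the prolyl hydroxylase that stabilises the collagen helix, read 10.33, 10.47 and 10.68 in ND and 11.46, 11.42 and 11.35 in HFD at 2 months. Its groups did not overlap, and it rose by 0.92 ± 0.22 (adjusted p = 0.0463). Col11a2, a chain of the fibrillar collagen XI, rose by 0.35 ± 0.07 averaged over times (adjusted p = 0.0288). Its difference was 0.50 ± 0.13 at 1 month (0.228), 0.41 ± 0.13 at 2 months (0.101) and 0.16 ± 0.13 at 4 months (0.999).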

How the data were processed

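RNA of BMSC was measured on 18 Affymetrix rat arrays. The table deposited by the authors holds a linear intensity for each probe set, summarised by RMA per the submitters' processing notes. Its version, and a genome build, are not given in the sources used here. Intensities were converted to log2 without a pseudocount. The table held 31099 probe sets, 57 of them controls.

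The values of ND replicate 1 at 1 month were displaced by 1343 rows, as many as the empty cells at the end of that column. Moving them back raised the correlation with the average array from 0.0909 to 0.990, and this offset was the best for 20 of 20 windows of 500 rows. Among tested probe sets, 1066 have no value there.

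The dimmest 30% of probe sets (3.22 log2 or less) and controls were left out. The tests covered 21729 probe sets. They represented 11446 named genes, of which the brightest probe set was taken. Probe set names came from the platform annotation, where 20832 probe sets had 1 symbol, 436 several and 9831 none. All 18 arrays entered a single limma 3.58.1 model of 6 group means (R 4.3.3, default moderation, 12 residual degrees of freedom). Tests were two-sided, and the threshold was 0.05 after Benjamini-Hochberg adjustment across these probe sets. The script was tested on simulated data.

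Members and gene lists were chosen with earlier results of these data known. Values on each array are given for members that passed any of the 11 tests and for the member with the largest moderated t of each of the 8 role groups at each diet comparison, and some further members were added after their values were seen. The number of arrays limits the precision. Alternatives covered filters, normalization, variance model, array weights, arrays fitted, probe sets per gene, a macrophage covariate, a replicate block and leaving out each array.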

Additional observations from a re-analysis of the deposited data

How the results depend on the processing

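The number of members that passed at 2 months, 3 in the reported fit, was 5 with an intensity trend and robust moderation, 14 with array weights, 5 with the macrophage marker mean as a covariate and 0 when only the groups compared were fitted, where fewer arrays estimate the spread. With that covariate Col14a1 and Plod2 passed and Fbln1 did not (limma adjusted p = 0.081), so the 5 included members outside the reported 3. Leaving out 1 array gave 0 to 6. The averaged count of 1 became 2 with the trend and 6 with array weights, and 1 to 2 without 1 array. The diet by time count was 0 to 1 without 1 array. Array weights gave 1 member in ND from 2 to 4 months, 6 in HFD from 1 to 2 months and 5 in HFD from 1 to 4 months, each 0 as reported. HFD from 1 to 2 months gave 1 with the covariate and 0 to 2 without 1 array. The count of 1 in HFD from 2 to 4 months was 0 without a filter, 2 with the dimmest 50% left out, 2 with quantile normalization, 0 with the trend, 13 with array weights, 0 with the covariate and 0 to 7 without 1 array. It was 1 with the replicate block and with probe sets averaged, where Fbln1 passed, and 1 with only the groups compared, where Fbln5 passed. The cause was not tested. The other counts stayed within 1.5 times of those reported.

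Signs changed in Col8a1 at 2 months (a difference of -0.082 with the macrophage covariate, -0.21 to 0.61 without 1 array) and in Col6a3 at 1 month (-1.47 to 0.30 without 1 array, 0.06 without ND replicate 3). Without 1 array Col14a1 at 2 months ranged from -4.15 to -2.62 and passed in 15 of 18 fits, Plod2 from 0.58 to 0.74 and passed in 15, and Fbln1 from -1.08 to -0.83 and passed in 9. Lama4 passed in 4 of 18. With the covariate the members' median difference at 2 months was -0.03.

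No label pairs the arrays by replicate number. Same-numbered arrays had a mean residual correlation of -0.0254 over 45 pairs, 12 of them above 0.1. The pairs ranged from -0.572 to 0.662, so this mean cannot exclude pairing between some of the groups. With the replicate block the 2-month count stayed at 3, and Col14a1 in HFD from 2 to 4 months had an adjusted p of 0.0794 in limma.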

Other observations

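ND replicate 3 at 4 months held the lowest of the 18 values for 11 of the 37 members measured on every array, and for 1163 of 10564 named genes. The 11 were Col1a1, Col1a2, Col3a1, Col5a1, Col11a1, Col16a1, Col6a3, Fbn1, Lama4, Loxl2 and Serpinh1, 5 of them fibrillar collagen chains. ND replicate 3 at 1 month, the array with the lowest macrophage marker mean (-3.45), held the highest value for 8 of the 37, and for 645 of the 10564 named genes. These were Col15a1, Col18a1, Col4a1, Col4a2, Col6a3, Lama4, Lamb1 and Serpinh1. On the same array the adipocyte marker mean was 2.27 and the smooth muscle and pericyte marker mean 1.005. The part of any marker group in these values was not tested. These arrays were singled out after their values were seen.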
